A study of Mus musculus with 9 samples.

Results

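The mitochondrial genome of the mouse encodes its genes under symbols that begin with mt-, and the genes described here were chosen by that prefix alone. Of the 41710 gene names in the deposited count table, 37 begin with mt-. They comprise 13 mRNA genes, 2 rRNA genes and 22 tRNA genes. The set was taken up because the mitochondrial share of reads was already known to be lower in Tg-RKIP than in FVB libraries. The contrast of Tg-RKIP against FVB is therefore given as a description of levels and fold changes, without p-values, and tests were run for the other transgenic group and for nuclear genes.

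The data are heart transcriptomes of male mice in FVB/N background at an age of 8 months, with 3 libraries per group. Tg-RKIP mice carry a transgene for RKIP (Raf kinase inhibitor protein, gene Pebp1) under control of the alpha-MHC promoter, which is active in heart muscle cells. Tg-GRK2 is the label of the mice said to carry a transgene for the G protein-coupled receptor kinase GRK2, and FVB mice are the non-transgenic controls. Whole hearts were pulverised and total RNA was isolated, so each library holds the RNA of all cardiac cell types. Pebp1 was at 15967 to 16371 TPM in Tg-RKIP and at 321 to 330 TPM in FVB. Grk2 was at 24.9 to 30.5 TPM in the Tg-GRK2-labelled libraries and at 25.9 to 27.9 TPM in FVB. The log2 fold change of Grk2 was 0.054 ± 0.038 (SE) with an adjusted p of 0.354 by edgeR, so these libraries are called by their label throughout. The labels number the replicates within a group, and for Tg-RKIP and FVB the authors give 3 hearts per group. The p-values measure the spread between these libraries.

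Mitochondrial DNA is transcribed from both strands into long RNAs that span many genes. Excision of the tRNAs that lie between the other genes releases the mRNAs and rRNAs. The mRNAs encode core subunits of respiratory chain complexes I, III and IV and of the ATP synthase, complex V, and the remaining subunits of these complexes are encoded in the nucleus. POLRMT is the mitochondrial RNA polymerase, TFAM and TFB2M start transcription at its promoters, and the LRPPRC and SLIRP proteins stabilise mitochondrial mRNAs. Heart muscle is rich in mitochondria, and mitochondrial transcripts are a large part of its polyadenylated RNA.

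The sequences below are shown because the results turn on these places. The first pair are the tRNA genes with the lowest Tg-RKIP to FVB fold among those with a mean of at least 100 reads in their highest group, and the next pair are those with the highest fold. Capitals mark the anticodon. All are taken from GENCODE M21 transcripts by transcript identifier and are written 5′ to 3′ of the RNA strand as DNA letters. The tRNA for methionine, mt-Tm, lies at MT:3845-3913 on the plus strand, that for leucine (UUR), mt-Tl1, at MT:2676-2750 on the plus strand, that for serine (UCN), mt-Ts1, at MT:6870-6938 on the minus strand, and that for glutamate, mt-Te, at MT:14071-14139 on the minus strand.
mt-Tm: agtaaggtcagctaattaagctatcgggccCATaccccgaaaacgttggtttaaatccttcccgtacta
mt-Tl1: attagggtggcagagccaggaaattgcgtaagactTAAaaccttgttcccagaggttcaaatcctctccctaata
mt-Ts1: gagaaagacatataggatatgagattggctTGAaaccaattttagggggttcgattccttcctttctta
mt-Te: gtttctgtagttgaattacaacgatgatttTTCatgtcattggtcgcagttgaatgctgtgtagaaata

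The overlaps of 2 pairs of mRNA genes are shown too, since each pair overlaps in different reading frames and is carried by 1 mature mRNA, while its reads did not keep a constant ratio. The 43 bases shared by mt-Atp8 and mt-Atp6, at MT:7927-7969, open with the start codon of mt-Atp6, shown in capitals. The 7 bases shared by mt-Nd4l and mt-Nd4, at MT:10167-10173, open with the start codon of mt-Nd4.
mt-Atp8/mt-Atp6 overlap: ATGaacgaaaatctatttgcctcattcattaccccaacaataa
mt-Nd4l/mt-Nd4 overlap: ATGctaa

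The libraries held 25458108 to 33447654 reads on genes. Replicate 1 of the Tg-GRK2-labelled libraries stood apart from the others. Its reads of Rn18s, the cytosolic 18S rRNA, were 1.31% of all reads, against 0.168% to 0.270% in the remaining libraries. The mean chi-square per gene between it and its replicates was 19.0 and 23.2, whereas all other pairs within a group gave 1.72 to 2.63. This mean includes Rn18s itself and was not computed without it, so it does not show that other genes deviated. In bulk heart RNA, fewer cardiomyocytes and less mitochondrial RNA per cardiomyocyte cannot be told apart. Of 12 cardiomyocyte markers, 10 were called lower and 1 higher in Tg-RKIP than in FVB after TMM normalisation, with a median log2 fold change of -0.62. Over all 15504 genes tested, 37.1% were called lower and 36.8% higher. With libraries scaled by read totals alone, 7 of the 12 markers were lower and 5 higher, beside 2650 and 9709 of all genes tested. The summed level of the 12 markers was 60097 to 61254 TPM in Tg-RKIP, 58884 to 60784 TPM in the Tg-GRK2-labelled libraries and 61869 to 62330 TPM in FVB. No cardiomyocyte marker was at 0. TPM add up to a fixed total in each library. Mitochondrial genes held 20.7% of it in Tg-RKIP and 38.1% in FVB, which raises the TPM of the other genes in Tg-RKIP.

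Markers of other cell types moved with the groups. In Tg-RKIP, all 8 fibroblast, all 8 adipocyte, all 5 erythrocyte and 6 of 7 macrophage markers were called higher than in FVB. Among the 7 endothelial markers 4 were called higher and 3 lower. Over all genes tested, 36.8% were called higher and 37.1% lower. Summed fibroblast markers were at 2719 to 2733 TPM in Tg-RKIP, 1178 to 1195 TPM in the Tg-GRK2-labelled libraries and 1032 to 1060 TPM in FVB. Summed erythrocyte markers were at 3477 to 3645 TPM, 1665 to 1690 TPM and 739 to 753 TPM in the same order. Summed airway epithelium markers were at 65.2 to 68.3 TPM in Tg-RKIP, 158 to 166 TPM in the Tg-GRK2-labelled libraries and 0.411 to 0.873 TPM in FVB, where 3 of the 7 were at 0 in every library. The smaller mitochondrial part of the TPM raises these sums in Tg-RKIP too. The part of these cell types in the mitochondrial values was not tested.

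Mitochondrial genes took up 23.2%, 22.9% and 23.1% of all reads in the 3 FVB libraries. In the Tg-RKIP libraries they took up 11.5%, 11.8% and 11.7%, and in the Tg-GRK2-labelled libraries 22.4%, 22.4% and 22.9%. All Tg-RKIP libraries lay far below all others, while the ranges of the Tg-GRK2-labelled libraries and FVB touched at 22.9%. The mean was 11.7% ± 0.156 (SD, n = 3) in Tg-RKIP, 22.6% ± 0.299 in the Tg-GRK2-labelled libraries and 23.1% ± 0.158 in FVB. The difference of -0.522 percentage points between the Tg-GRK2-labelled libraries and FVB did not pass an exact two-sided permutation test (p = 0.2, n = 3 against 3, where 0.1 is the smallest p that this design can give). Measured per length, as a share of the sum of TPM, mitochondrial RNA made up 20.7% ± 0.299 in Tg-RKIP, 38.1% ± 0.509 in the Tg-GRK2-labelled libraries and 38.1% ± 0.237 in FVB.

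Leaving out the transgene's own reads changed this share little. Reads of Pebp1 and its near-identical relative Pbp2 were 1.23% to 1.27% of all reads in Tg-RKIP, and without them the mitochondrial share in Tg-RKIP was 11.6% to 12.0%.

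**Figure D1:**
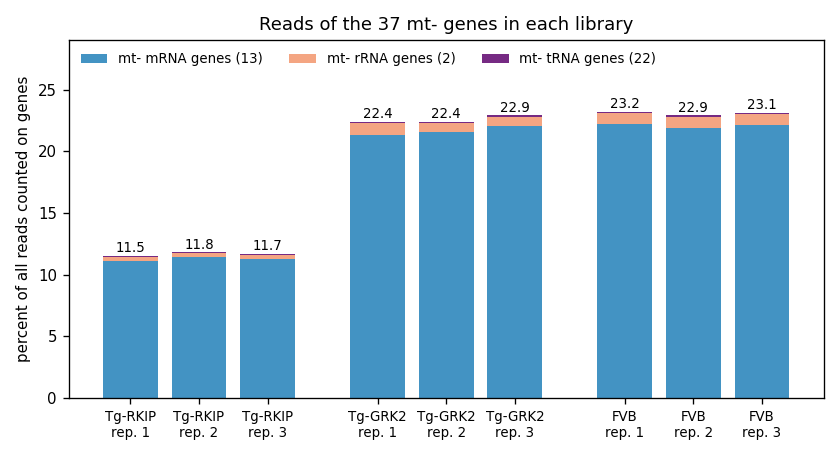
Reads of the 37 mt- genes as a percentage of all reads on genes (vertical axis) in each of the 9 libraries, with bars stacked by mRNA, rRNA and tRNA genes and the total printed above each bar. The 3 Tg-RKIP libraries reach 11.5 to 11.8, whereas the other 6 libraries reach 22.4 to 23.2.

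After TMM normalisation, which scales libraries by the bulk of their genes, 34 of the 37 mitochondrial genes passed the expression filter. The tRNA genes mt-Tf, mt-Tv and mt-Td did not pass it, with at most 15 reads in any library. In Tg-RKIP against FVB, all 34 log2 fold changes were below 0, from -2.81 to -0.47, with a median of -1.47, beside a median of 0.0085 over all 15504 genes tested. Of the 34, 33 passed the threshold as lower and 0 as higher, where 37.1% of all genes tested were called lower and 36.8% higher. Of all genes called, 49.8% were higher with TMM and 78.6% were higher with libraries scaled by read totals alone. These counts repeat the difference for which the genes were chosen, and nothing is read from them. Reads as a percentage of all reads did not overlap between Tg-RKIP and FVB for 32 of the 37 genes, all lower, beside 17.5% of all genes tested that were lower and 63.2% that were higher without overlap. When libraries were scaled by their read totals alone, the median over all genes moved from 0.0085 to 0.38 and that over the 13 mitochondrial mRNAs from -1.31 to -0.94, so the mRNAs lay below the bulk of genes on both scales.

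**Figure D2:**
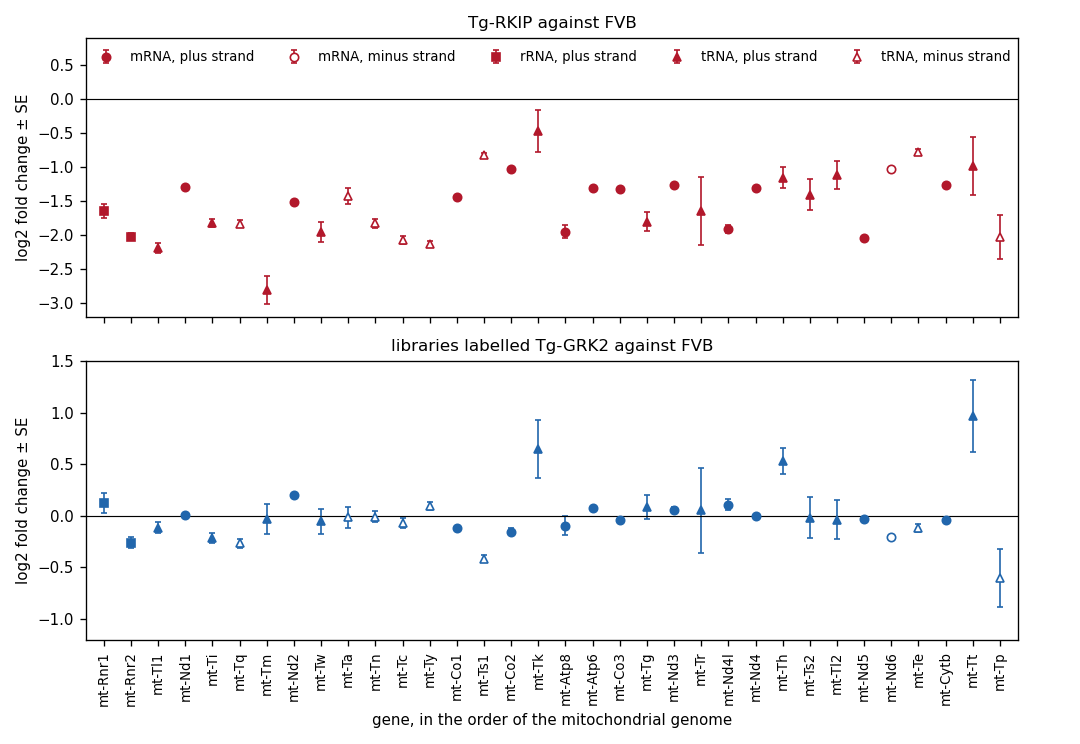
Log2 fold change against FVB ± SE (vertical axes) of the 34 mt- genes that passed the filter, in the order of the mitochondrial genome, in Tg-RKIP (upper panel, -2.81 to -0.47) and in the Tg-GRK2-labelled libraries (lower panel, -0.60 to 0.96), with circles for mRNA, squares for rRNA and triangles for tRNA genes and open symbols for genes on the minus strand. The panels have different ranges on the vertical axis and share the FVB libraries.

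The decrease was unequal among the mRNAs. The 13 log2 fold changes in Tg-RKIP against FVB ran from -2.04 to -1.03, while their standard errors were 0.0092 to 0.096. A group of 6 mRNAs lay close together, from mt-Co3 at -1.32 ± 0.015 over mt-Nd4, mt-Atp6, mt-Nd1 and mt-Nd3 to mt-Cytb at -1.26 ± 0.012. Below them were mt-Nd5 at -2.04 ± 0.016, mt-Atp8 at -1.94 ± 0.096, mt-Nd4l at -1.90 ± 0.055, mt-Nd2 at -1.51 ± 0.017 and mt-Co1 at -1.44 ± 0.0092. Above them were mt-Co2 at -1.03 ± 0.036 and mt-Nd6 at -1.03 ± 0.022.

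The order of the mRNAs by level, measured as TPM and therefore per length, was led by the subunits of cytochrome c oxidase and ATP synthase. In FVB, mt-Co1, the catalytic subunit of cytochrome c oxidase (complex IV), was at 62926 ± 998 TPM and mt-Atp6, which forms part of the proton channel of ATP synthase, at 60968 ± 1866 TPM, and their ranges overlapped. Next came mt-Co3 at 46118 ± 590 TPM and mt-Co2 at 43702 ± 3019 TPM, whose ranges also overlapped. mt-Cytb, the only mitochondrially encoded subunit of complex III, followed at 27181 ± 251 TPM. The lowest were mt-Nd5 at 7969 ± 128 TPM, mt-Atp8 at 6239 ± 892 TPM and mt-Nd4l at 6032 ± 349 TPM, of which the last pair overlapped. In Tg-RKIP, mt-Atp6 at 32962 ± 643 TPM was above mt-Co1 at 31010 ± 350 TPM without overlap, and mt-Co2 at 28619 ± 1554 TPM was above mt-Co3 at 24735 ± 202 TPM without overlap. mt-Nd6 at 7617 ± 233 TPM and mt-Nd2 at 7456 ± 216 TPM overlapped, whereas in FVB mt-Nd2 at 15876 ± 333 TPM lay above mt-Nd6 at 11630 ± 336 TPM. In the Tg-GRK2-labelled libraries mt-Atp6 at 66437 ± 717 TPM was also above mt-Co1 at 59974 ± 443 TPM without overlap. There mt-Co3 at 46498 ± 1403 TPM lay above mt-Co2 at 40706 ± 305 TPM.

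The make-up of the mitochondrial reads, given as each gene's percentage of the reads of all mt- genes in a library, does not depend on the scaling between libraries. Of the 37 genes, 12 had a higher and 16 a lower percentage in every Tg-RKIP library than in every FVB library, and 9 overlapped. In percentage of all reads, a different measure, 63.2% of all genes tested were higher and 17.5% lower without overlap. Shares of mitochondrial reads compare parts of a whole, so a lower share of some genes raises that of others. The mRNAs together made up 96.6% ± 0.0036 of mitochondrial reads in Tg-RKIP, 95.9% ± 0.621 in the Tg-GRK2-labelled libraries and 95.6% ± 0.0571 in FVB.

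Of the 7 complex I genes, mt-Nd5 had the lowest ratio. It encodes a large proton-pumping subunit of the membrane arm and had 2.62%, 2.67% and 2.57% of mitochondrial reads in the Tg-RKIP libraries. Its percentage was 4.24, 4.19 and 4.18 in FVB and 4.24, 4.27 and 4.21 in the Tg-GRK2-labelled libraries, so Tg-RKIP stood apart and the other groups overlapped. The ratio of the Tg-RKIP to the FVB mean was 0.624. mt-Nd6, which encodes a membrane subunit of complex I and is the only mRNA gene on the minus strand, went the opposite way. It had 2.20%, 2.24% and 2.15% in Tg-RKIP, 1.79%, 1.73% and 1.72% in FVB and 1.53%, 1.56% and 1.59% in the Tg-GRK2-labelled libraries, with no overlap among the 3 groups. mt-Nd5 and mt-Nd6 share 14 bases on opposite strands at MT:13552-13565. The strand setting of the counting is not given in the sources used here. Reads of mt-Nd6 and of RNA from the opposite strand can therefore not be told apart.

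The shares of mt-Nd1, mt-Nd3 and mt-Nd4, further membrane arm subunits, were 1.05, 1.07 and 1.04 times those of FVB in Tg-RKIP. They were 1.04, 1.07 and 1.03 times those of FVB in the Tg-GRK2-labelled libraries, without overlap with FVB in either group. mt-Nd2 was at 4.30%, 4.38% and 4.22% in Tg-RKIP and at 4.82%, 4.71% and 4.76% in FVB. In the Tg-GRK2-labelled libraries mt-Nd2 was at 5.58%, 5.63% and 5.68%, above every FVB library.

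In complex IV, mt-Co2 had a higher and mt-Co1 a lower share in Tg-RKIP. mt-Co2, which holds the copper site that takes electrons from cytochrome c, had 10.6%, 10.5% and 11.6% of mitochondrial reads in Tg-RKIP, 8.12%, 9.41% and 8.40% in FVB and 8.02%, 8.02% and 8.01% in the Tg-GRK2-labelled libraries. The third Tg-RKIP library and the second FVB library lay above their replicates, and the groups still did not overlap. mt-Co1 took 26.9%, 26.5% and 26.4% in Tg-RKIP and 28.3%, 27.9% and 28.1% in FVB. Its share was also below every FVB library in the Tg-GRK2-labelled libraries, at 26.6%, 26.8% and 26.6%. mt-Co3 and mt-Cytb had 1.03 and 1.07 times their FVB share in Tg-RKIP.

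**Figure D3:**
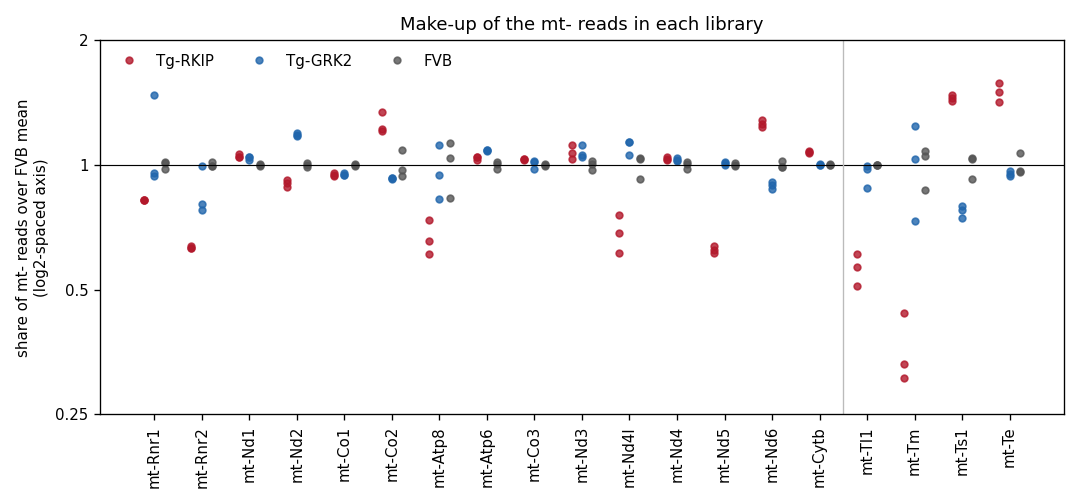
Share of mitochondrial reads in each library divided by the mean share of the 3 FVB libraries (vertical axis, spaced by log2) for the 2 rRNA genes, the 13 mRNA genes and, right of the grey line, the 4 tRNA genes whose sequences are shown; each point is a library. The Tg-RKIP points lie lowest for mt-Tm (mean ratio 0.359), mt-Tl1 (0.562), mt-Nd5 (0.624) and mt-Rnr2 (0.632) and highest for mt-Te (1.50) and mt-Ts1 (1.45).

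Genes that share a mature mRNA did not keep a constant ratio of reads. For every 100 reads of mt-Atp6, mt-Atp8 had 1.97 ± 0.171 reads in Tg-RKIP, 2.72 ± 0.409 in the Tg-GRK2-labelled libraries and 3.08 ± 0.525 in FVB. The ranges were 1.82 to 2.15 in Tg-RKIP, 2.34 to 3.15 in the Tg-GRK2-labelled libraries and 2.51 to 3.55 in FVB, so Tg-RKIP lay below the others. For every 100 reads of mt-Nd4, mt-Nd4l had 3.82 ± 0.380 reads in Tg-RKIP, 6.22 ± 0.324 in the Tg-GRK2-labelled libraries and 5.78 ± 0.467 in FVB, again with Tg-RKIP below both other groups and the latter overlapping. mt-Atp8 and mt-Nd4l are the shortest mRNA genes, with 204 and 297 bases, and their levels varied more among replicates than those of their partners. The place of the reads along the shared mRNA was not analysed here.

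mt-Nd5 and mt-Cytb, the last mRNA genes on the plus strand, also parted. There were 27.1 ± 0.316 reads of mt-Nd5 for every 100 reads of mt-Cytb in Tg-RKIP, against 47.1 ± 0.307 in the Tg-GRK2-labelled libraries and 46.7 ± 0.441 in FVB. For every 100 reads of mt-Nd6, mt-Nd5 had 119 ± 0.114 reads in Tg-RKIP, 273 ± 6.41 in the Tg-GRK2-labelled libraries and 241 ± 3.08 in FVB. These ratios were chosen after the values of the genes were seen and were not tested. The limit of the unknown strand setting applies to the reads of mt-Nd6 here too.

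**Figure D4:**
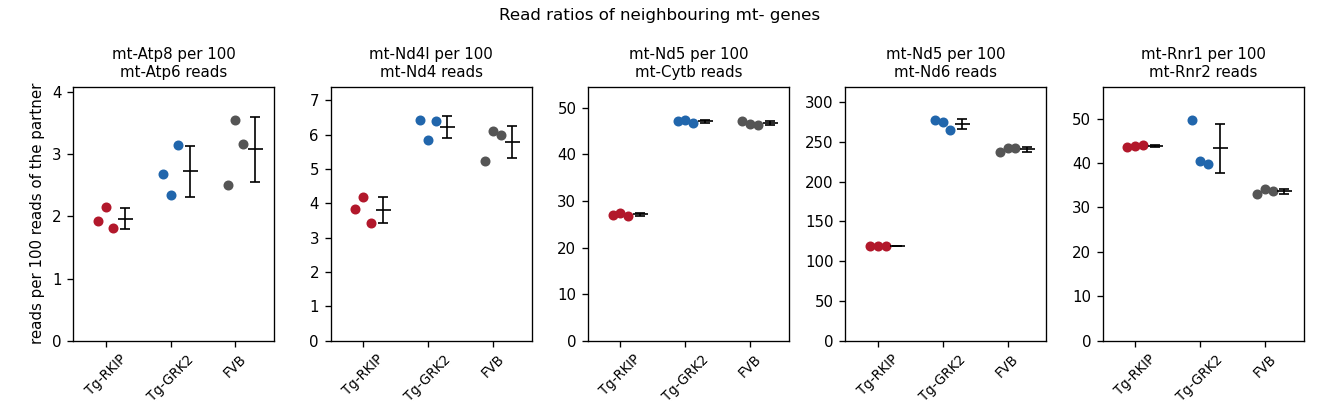
Reads of a mitochondrial gene for every 100 reads of a neighbour in each library (vertical axes start at 0), with points for libraries and bars for mean ± SD of 3 libraries per group. Tg-RKIP lies below both other groups in the first 4 panels, with 27.1 against 46.7 in FVB for mt-Nd5 over mt-Cytb. In the panel of mt-Rnr1 over mt-Rnr2, both Tg-RKIP and the Tg-GRK2-labelled libraries lie above FVB.

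The 2 rRNAs form the cores of the mitochondrial ribosome, mt-Rnr1 of the small and mt-Rnr2 of the large subunit. mt-Rnr2 had 1.84%, 1.82% and 1.82% of mitochondrial reads in Tg-RKIP and 2.87%, 2.87% and 2.93% in FVB, and its log2 fold change was -2.02 ± 0.053. mt-Rnr1 had 0.800%, 0.797% and 0.801% in Tg-RKIP and 0.946%, 0.981% and 0.984% in FVB, with a log2 fold change of -1.64 ± 0.10. There were 43.8 ± 0.223 reads of mt-Rnr1 for every 100 reads of mt-Rnr2 in Tg-RKIP and 33.6 ± 0.593 in FVB. In the Tg-GRK2-labelled libraries there were 43.3 ± 5.54, from 39.8 to 49.7. Every library of both transgenic groups thus lay above the FVB range of 33.0 to 34.2. The libraries were made from mRNA, and the yield of rRNA in that step was not analysed here.

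The rRNAs of the Tg-GRK2-labelled libraries depended on replicate 1, the library with the most Rn18s reads. mt-Rnr1 was at 1.43%, 0.910% and 0.928% of mitochondrial reads in these 3 libraries, and mt-Rnr2 at 2.87%, 2.25% and 2.33%. With all libraries, mt-Rnr2 fell below its FVB level by 0.26 ± 0.051 on the log2 scale (adjusted p = 0.000563) and mt-Rnr1 did not pass the test (0.12 ± 0.097, adjusted p = 0.415). Without replicate 1, mt-Rnr1 was lower (-0.12 ± 0.021, adjusted p = 0.00017) and mt-Rnr2 was at -0.38 ± 0.021 (adjusted p = 7.44e-12). With all libraries, mt-Rnr2 was at -0.22 by limma on log2(TPM + 0.1) and did not pass that test (adjusted p = 0.114). The part of cytosolic rRNA carried into the library was not tested.

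The tRNA genes had few reads, apart from a pair on the minus strand. The 22 tRNA genes took 0.767% of mitochondrial reads in Tg-RKIP and 0.580% in FVB. Without mt-Ts1 and mt-Te the other 20 took 0.0676% in Tg-RKIP and 0.101% in FVB. Reads of 50 bases cover most of a tRNA gene of 59 to 75 bases, and reads of a mature tRNA, of an unprocessed RNA or of RNA from the opposite strand cannot be told apart in these counts.

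mt-Tm, the tRNA for methionine that lies before mt-Nd2, had 25, 44 and 23 reads in Tg-RKIP and 140, 194 and 165 reads in FVB. Its log2 fold change was -2.81 ± 0.20, the lowest of all mitochondrial genes tested, with counts low enough for a wide error. mt-Tl1, the tRNA for leucine that separates mt-Rnr2 from mt-Nd1, had 169, 209 and 141 reads in Tg-RKIP and 589, 661 and 579 reads in FVB (-2.19 ± 0.070). mt-Ty and mt-Tc, the tRNAs for tyrosine and cysteine on the minus strand, followed at -2.13 ± 0.049 and -2.07 ± 0.057. mt-Ti, mt-Tq, mt-Tn, mt-Tw and mt-Tg lay between -1.95 and -1.80, and mt-Ta was at -1.42 ± 0.12 and mt-Th at -1.15 ± 0.15.

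mt-Ts1 and mt-Te had the smallest decrease among genes with more than 100 reads. mt-Ts1 had 15956, 20787 and 16104 reads in Tg-RKIP and 24159, 24167 and 23826 reads in FVB, a log2 fold change of -0.82 ± 0.035. Its gene ends against that of mt-Co1 on the opposite strand, with 3 shared bases at MT:6870-6872. For every 100 reads of mt-Co1 there were 2.01 ± 0.0383 reads of mt-Ts1 in Tg-RKIP, 1.07 ± 0.0345 in the Tg-GRK2-labelled libraries and 1.31 ± 0.0784 in FVB. mt-Te, which directly adjoins mt-Nd6 on the same strand, had 4668, 6865 and 4892 reads in Tg-RKIP and 6746, 8347 and 6589 reads in FVB (-0.77 ± 0.038). The counts overlapped, as the second Tg-RKIP library was the deepest of all, whereas the percentages of all reads did not. For every 100 reads of mt-Nd6 there were 7.51 ± 0.338 reads of mt-Te in Tg-RKIP and 6.32 ± 0.455 in FVB, without overlap. Other genes on the minus strand, such as mt-Ty, mt-Tc and mt-Tp (-2.02 ± 0.32), were among the lowest. mt-Tk, mt-Tt, mt-Tr, mt-Ts2, mt-Tl2 and mt-Tp had at most 74 reads in any library, and mt-Tk at -0.47 ± 0.31 was the gene that did not pass the threshold.

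The libraries labelled Tg-GRK2 had nearly the same mitochondrial levels as FVB, with small and mixed differences. Of the 34 genes tested, 4 rose and 9 fell, which is 11.8% and 26.5%, where 12.2% of all genes tested were called higher and 12.2% lower. Of all genes called in this contrast, 50.0% were higher by edgeR and 72.0% by limma on log2(TPM + 0.1). The median of the 34 log2 fold changes was -0.03, beside -0.0023 over all genes tested. This contrast shares its FVB libraries with that of Tg-RKIP. Of the mRNAs, mt-Nd2 rose by 0.20 ± 0.017 on the log2 scale (adjusted p = 1.48e-08) and mt-Atp6 by 0.074 ± 0.015 (adjusted p = 0.00104). mt-Nd6 fell by 0.21 ± 0.022 (adjusted p = 2.04e-07), mt-Co2 fell by 0.15 ± 0.036 (adjusted p = 0.00283), mt-Co1 fell by 0.12 ± 0.009 (adjusted p = 1.74e-09) and mt-Cytb fell by 0.044 ± 0.012 (adjusted p = 0.00926). The other 7 mRNAs had log2 fold changes of -0.096 to 0.11 that did not pass the test. The call of mt-Cytb was lost without Tg-GRK2 replicate 1 (-0.042, adjusted p = 0.0686 by edgeR) and without Tg-GRK2 replicate 2 (-0.034, adjusted p = 0.0882). By limma on log2(TPM + 0.1) the differences of mt-Co1 (-0.069, adjusted p = 0.147) and mt-Co2 (-0.10, adjusted p = 0.286) did not pass, and mt-Cytb was at 0.0059. Nor did mt-Co2 (-0.14, adjusted p = 0.12) and mt-Cytb (-0.034, adjusted p = 0.11) pass by DESeq2.

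mt-Nd6 and mt-Nd2 had the largest log2 fold changes of the mRNAs in this contrast. mt-Nd2 took 1.25%, 1.26% and 1.30% of all reads in the Tg-GRK2-labelled libraries and 1.12%, 1.08% and 1.10% in FVB. mt-Co1 took 5.96%, 6.01% and 6.10% of all reads against 6.56%, 6.40% and 6.50%, and these groups did not overlap either. mt-Nd6 took 0.342%, 0.348% and 0.363% against 0.414%, 0.395% and 0.398%. Over all 37 genes, 5 were higher and 9 lower without overlap in their percentage of all reads, beside 20.2% and 16.5% of all genes tested.

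Of the tRNAs in the Tg-GRK2-labelled libraries, mt-Ts1 fell by 0.42 ± 0.035 (adjusted p = 8.51e-09), with 17963, 18086 and 22001 reads. mt-Tq fell by 0.27 ± 0.046 (adjusted p = 0.000143), mt-Ti fell by 0.21 ± 0.050 (adjusted p = 0.00299) and mt-Te fell by 0.12 ± 0.038 (adjusted p = 0.0287). The call of mt-Te was lost without Tg-GRK2 replicate 1 (-0.10, adjusted p = 0.0849 by edgeR), without Tg-GRK2 replicate 2 (-0.10, adjusted p = 0.109) and without FVB replicate 2 (-0.069, adjusted p = 0.229). DESeq2 did not call mt-Te either (-0.11, adjusted p = 0.27). By limma on log2(TPM + 0.1), mt-Te (-0.064, adjusted p = 0.498) and mt-Ti (-0.16, adjusted p = 0.102) did not pass. mt-Th rose by 0.53 ± 0.13 (adjusted p = 0.00378). mt-Tt was at 0.96 ± 0.35 with an adjusted p of 0.0493, on 42, 18 and 30 reads against 8, 15 and 20 in FVB. Leaving out any library other than Tg-GRK2 replicate 2 or FVB replicate 3 ended this call, with 0.61 (adjusted p = 0.304) without Tg-GRK2 replicate 1, which held the 42 reads, and 0.70 (adjusted p = 0.214) without FVB replicate 1. mt-Tk (0.65 ± 0.28), mt-Tp (-0.60 ± 0.28) and the remaining tRNAs did not pass the test.

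The share of mitochondrial reads in the Tg-GRK2-labelled libraries lay outside the FVB range for 16 of the 37 genes, 9 higher and 7 lower. In percentage of all reads, a different measure, 20.2% of all genes tested were higher and 16.5% lower without overlap. For each of the 16 the exact two-sided permutation test gave p = 0.1, the smallest p that 3 against 3 libraries allow, and p = 0.231 after adjustment over the 37 genes. The 22 tRNA genes together had 0.491% ± 0.0116 of mitochondrial reads against 0.580% ± 0.0173 in FVB (exact permutation p = 0.1, higher in 3 of 3 FVB libraries). Without mt-Ts1 and mt-Te both groups were at 0.101%.

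Nuclear genes for subunits of the same complexes were also lower in Tg-RKIP, by less. Of 72 tested nuclear-encoded subunits of complexes I, III, IV and V, with the ATP synthase inhibitor Atpif1 among them, 70 fell and 1 rose in Tg-RKIP against FVB. That is 97.2% lower, where 37.1% of all genes tested were called lower. Their median log2 fold change was -0.53. The gene that rose was Atpif1 (log2 fold change 0.88 ± 0.033, adjusted p = 5.04e-16). The lowest was Ndufs1, the largest subunit of complex I, at -1.25 ± 0.016 (adjusted p = 2.15e-24), and Ndufb3 did not pass the test. When libraries were scaled by read totals alone the median was -0.15, 48 fell and 11 rose. The median over all genes was then 0.38, with 2650 of 15504 called lower and 9709 higher. By limma on log2(TPM + 0.1) 36 fell and 10 rose, beside 1947 lower and 8889 higher of all 13478 genes tested there.

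The 36 nuclear subunits of complex I had a median of -0.51, beside -1.31 for the 7 mitochondrial ones. In complex III the medians were -0.78 for 9 nuclear subunits and -1.26 for mt-Cytb, in complex IV -0.49 for 12 nuclear and -1.32 for 3 mitochondrial subunits, and in complex V -0.60 for 15 nuclear and -1.62 for 2 mitochondrial subunits. The ratio of summed TPM of mitochondrial over nuclear subunits of complex I was 2.68 ± 0.0808 in Tg-RKIP, 5.37 ± 0.0841 in the Tg-GRK2-labelled libraries and 4.86 ± 0.154 in FVB. For complex IV it was 4.68 ± 0.0679, 8.28 ± 0.0724 and 8.11 ± 0.153 in the same order, for complex III 2.16 ± 0.0363, 3.37 ± 0.0391 and 3.24 ± 0.0879, and for complex V 1.73 ± 0.0467, 3.30 ± 0.0662 and 2.92 ± 0.0806. In each complex the 3 Tg-RKIP libraries had the lowest ratios.

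In the Tg-GRK2-labelled libraries, 61 of the 72 nuclear-encoded subunits fell by edgeR, and all 72 log2 fold changes were below 0, from -0.34 to -0.0075, with a median of -0.12. That is 84.7% lower beside 12.2% of all genes tested. The mitochondrial mRNAs of these libraries had a median of -0.03. Among the cardiomyocyte markers of this contrast, 8 of 12 were also called lower and 4 higher, beside 12.2% of all genes tested in each direction. Their median was -0.088. By limma on log2(TPM + 0.1), 8 of the nuclear-encoded subunits were called lower, beside 613 of all 13478 genes tested there.

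**Figure D5:**
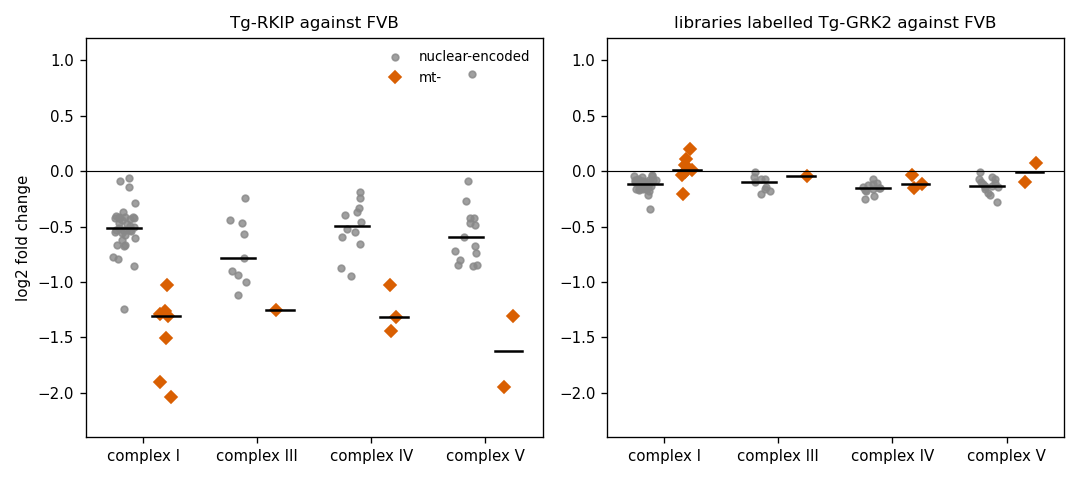
Log2 fold change against FVB (vertical axis) of nuclear-encoded (grey circles) and mitochondrially encoded (orange diamonds) subunits by respiratory chain complex in Tg-RKIP (left) and in the Tg-GRK2-labelled libraries (right), with a point per gene and lines at the medians. In Tg-RKIP the mitochondrial medians (-1.62 to -1.26) lie below the nuclear ones (-0.78 to -0.49), whereas all medians on the right lie between -0.15 and 0.0094.

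Nuclear genes that act on mitochondrial DNA and RNA were mostly lower in Tg-RKIP. Of 93 tested genes in 6 lists, 74 fell and 5 rose against FVB, which is 79.6% and 5.38%, beside 37.1% and 36.8% of all genes tested, with a median of -0.55. With read totals alone 50 fell and 22 rose, with a median of -0.18, where 2650 of all 15504 genes tested were called lower and 9709 higher. Among 12 genes of mitochondrial transcription 9 fell and the other 3 did not pass the test, and among 14 genes of mitochondrial DNA replication 10 fell and 2 rose. Of 23 genes of RNA processing and stability 22 fell and 1 rose, of 16 genes of RNA modification 11 fell and the other 5 did not pass the test, of 19 tRNA synthetases 17 fell and 1 rose, and of 10 regulators of mitochondrial biogenesis 6 fell and 1 rose.

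Genes of the core transcription machinery had moderate differences in Tg-RKIP. Tfam, whose protein packages mitochondrial DNA and activates its promoters, fell by 0.55 ± 0.033 on the log2 scale (adjusted p = 1.68e-12), and Tfb2m fell by 0.55 ± 0.026 (adjusted p = 1.84e-14). Scaled by read totals alone, both were at -0.18. By limma on log2(TPM + 0.1), Tfam was at -0.15 and no longer passed the test (adjusted p = 0.0518), and Tfb2m was at -0.17. Polrmt was at -0.18 ± 0.046 (adjusted p = 0.00116) after TMM normalisation but at 0.19 when scaled by read totals, so its direction depends on the scale. Its summed TPM was 25.6 ± 3.02 in Tg-RKIP and 12.6 ± 1.09 in FVB, and limma on log2(TPM + 0.1) gave 1.01. TPM also depends on the length of the transcripts that hold the reads, and the part of this in Polrmt was not tested. Slirp was at -0.19 ± 0.060 (adjusted p = 0.0067) and at 0.18 when scaled by read totals. Its partner Lrpprc fell by 0.99 ± 0.023 (adjusted p = 5.48e-20), from 60.4 ± 0.727 TPM in FVB to 42.5 ± 1.62 TPM.

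The largest decreases of these lists included Ppargc1a, the coactivator PGC-1alpha that drives mitochondrial biogenesis, which fell by 1.24 ± 0.031 (adjusted p = 2.56e-19) from 29.2 ± 0.936 TPM to 16.3 ± 0.804 TPM. Wars2, the mitochondrial tryptophanyl-tRNA synthetase, fell by 1.36 ± 0.089 (adjusted p = 8.7e-12). Pnpt1, the polynucleotide phosphorylase that degrades mitochondrial RNA, fell by 1.25 ± 0.043 (adjusted p = 6.92e-17). Fastk, which is needed for the mt-Nd6 mRNA, fell by 1.09 ± 0.024 (adjusted p = 2.87e-20). Rexo2, an exonuclease for short RNA, rose by 0.60 ± 0.041 (adjusted p = 1.51e-11), Rnaseh1, which removes RNA from RNA-DNA hybrids, by 0.46 ± 0.089 (adjusted p = 8.91e-05), and Tk2, the mitochondrial thymidine kinase, by 0.40 ± 0.067 (adjusted p = 1.37e-05). Pprc1, a coactivator related to PGC-1alpha, rose by 0.18 ± 0.065 (adjusted p = 0.0153), a call that was lost without Tg-RKIP replicate 1 (0.12, adjusted p = 0.113 by edgeR), FVB replicate 1 (0.14, adjusted p = 0.0952) or FVB replicate 2 (0.17, adjusted p = 0.0553). Scaled by read totals alone, the decreases were smaller, at -0.98 for Wars2, -0.88 for Pnpt1, -0.87 for Ppargc1a, -0.72 for Fastk and -0.62 for Lrpprc. On that scale the increases were larger, at 0.97 for Rexo2, 0.84 for Rnaseh1, 0.78 for Tk2 and 0.56 for Pprc1.

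In the Tg-GRK2-labelled libraries, 10 of the 93 genes fell and 3 rose, which is 10.8% and 3.23%, beside 12.2% of all genes tested in either direction alone. The median was -0.00097. Tfam, Tfb2m, Polrmt, Lrpprc and Slirp were between -0.11 and 0.065 and did not pass the test. Ppargc1a fell by 0.17 ± 0.029 (adjusted p = 0.000146), Trmt5, a tRNA methyltransferase, fell by 0.19 ± 0.045 (adjusted p = 0.00384), Trnt1, which adds the CCA end of tRNAs, fell by 0.18 ± 0.047 (adjusted p = 0.00834) and Ssbp1, which binds single-stranded mitochondrial DNA, fell by 0.17 ± 0.056 (adjusted p = 0.0344). The 3 genes that rose were Mterf1b by 0.80 ± 0.27 (adjusted p = 0.0367) at 1.38 ± 0.148 TPM, Esrra, the nuclear receptor ERR-alpha, by 0.23 ± 0.034 (adjusted p = 2.76e-05), and Vars2, the mitochondrial valyl-tRNA synthetase, by 0.19 ± 0.056 (adjusted p = 0.0136). Kars, the lysyl-tRNA synthetase of cytosol and mitochondria, fell by 0.089 ± 0.025 (adjusted p = 0.0115). Several of these calls were lost when a library was left out. Mterf1b did not pass when any library labelled Tg-GRK2 or FVB was left out, with 0.71 (adjusted p = 0.113 by edgeR) without Tg-GRK2 replicate 1. Ssbp1 was at -0.11 (adjusted p = 0.202) without that library and also did not pass without Tg-GRK2 replicate 2, FVB replicate 2 or FVB replicate 3. Trnt1 did not pass without FVB replicate 3 (-0.11, adjusted p = 0.0802), Vars2 without FVB replicate 1 (0.15, adjusted p = 0.0787) and Kars without Tg-GRK2 replicate 2 (-0.081, adjusted p = 0.0509). By limma on log2(TPM + 0.1), Ppargc1a (-0.10, adjusted p = 0.155), Trnt1, Ssbp1, Vars2 and Kars did not pass.

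Near-identical copies of mitochondrial genes could share reads with them. In GENCODE M21, 11 genes without the mt- prefix have a transcript with at least 95% identity to a mitochondrial transcript over at least 100 bases. They include Gm28661, which matches mt-Co2 over 681 bases at 100% identity, Gm28437, which matches mt-Co3 over 783 bases, and Gm10925, which matches mt-Atp6 over 678 bases. None of the 11 names is among the 41710 of the count table. How reads that match several genes were assigned is not given in the sources used here.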

How the data were processed

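The authors deposited read counts, whole numbers per Ensembl transcript without normalisation, and TPM values for 127558 transcripts in 9 libraries. The TPM, divided by transcript length by the authors, equal those recomputed from the counts to within 5.5e-06. The submitters' processing notes name the build GRCm39. Aligner, counting program and strand setting are not given in the sources used here. Transcripts with the same gene name were added up in both units. The deposited coordinates of all 37 mt- genes equal those of GENCODE M21, from which sequences were read.

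The test of the counts was that of edgeR 4.0.16 in R 4.3.3 (TMM, filterByExpr, glmQLFit and glmQLFTest, 1 fit of 9 libraries, Benjamini-Hochberg over 15504 genes, threshold 0.05), after tests on simulated data. SE was |log2 fold change|/√F. Shares were compared by exact permutation tests. Near-identical transcripts were sought with blastn 2.17.0 against the 37 mt- transcripts. Alternatives used DESeq2 1.42.0, limma 3.58.1 on log2 TPM with a pseudocount of 0.1 or 1 and a minimum of 1 TPM, other scalings, no filter, the replicate number as a block and leaving out each library.

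The members and lists were chosen with earlier results of these data known. All mRNA and rRNA genes are named, as are tRNA genes with a mean of at least 100 reads in their highest group and the 3 highest and 3 lowest. Of the nuclear lists for mitochondrial gene expression, the 4 largest and 4 smallest fold changes past the threshold per contrast and 6 set genes are named. The cell type marker lists, the 6 lists of mitochondrial gene expression and the lists of nuclear-encoded subunits were fixed by gene symbol.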

Additional observations from a re-analysis of the deposited data

Results flagged for a closer look

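For 6 mitochondrial genes the share of mitochondrial reads lay on opposite sides of FVB in the transgenic groups, with every Tg-RKIP library beyond the FVB range on one side and every Tg-GRK2-labelled library beyond it on the other. The difference between the transgenic groups was not tested, and both are set against the same FVB libraries. mt-Ts1 was at 1.45 times the FVB mean in Tg-RKIP and at 0.773 times in the Tg-GRK2-labelled libraries. mt-Nd6 was at 1.26 and 0.892 times, and mt-Co2 at 1.26 and 0.928 times. mt-Nd2 was at 0.903 times the FVB mean in Tg-RKIP and at 1.18 times in the Tg-GRK2-labelled libraries, mt-Nd4l was at 0.685 and 1.11 times, and mt-Ty at 0.586 and 1.10 times.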

How the results depend on the processing

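In Tg-RKIP against FVB all 15 mitochondrial mRNA and rRNA genes stayed lower under every alternative, and the number called lower was 31 to 33 when each library was left out. The difference in mitochondrial share was -17.4 percentage points as a share of TPM and -10.8 for the 13 mRNAs alone, beside -11.4 for all reads, and 6 in place of 12 genes had a higher share of mitochondrial TPM without overlap. In the Tg-GRK2-labelled libraries the mitochondrial genes called higher numbered 4, but 7 without an expression filter, and those called lower 9, but 3 by limma with either pseudocount. The cause was not tested.

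Counts for the nuclear lists depended on the scaling. Of the genes of mitochondrial gene expression in Tg-RKIP, 22 were called higher with read totals alone and 23 by limma with either pseudocount, and 38 and 39 lower by limma with a pseudocount of 0.1 and 1. In the Tg-GRK2-labelled libraries, 7 were higher with the size factors of DESeq2 or read totals alone, 1 by DESeq2 and 5 by limma with 0.1, and 1 to 6 when a library was left out (6 without Tg-GRK2 replicate 3, 1 without FVB replicate 1). Of these genes 6 were lower by DESeq2 and 1 by limma with either pseudocount. Of the nuclear-encoded subunits in Tg-RKIP, 11 were higher with read totals alone and 10 by limma with either pseudocount, which called 36 lower, and limma called 8 lower in the Tg-GRK2-labelled libraries. Of all genes called in Tg-RKIP, 49.8% were higher with TMM, 78.6% with read totals alone and 82.0% by limma with 0.1. Read totals alone called 9709 of 15504 genes higher and 2650 lower there. Limma with 0.1 called 8889 of 13478 higher and 1947 lower. For the Tg-GRK2-labelled libraries limma with 0.1 called 1578 higher and 613 lower, and DESeq2 called 1467 of 15504 higher and 1206 lower.

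Fold changes of named genes that changed sign are given here on the log2 scale. In Tg-RKIP, Polrmt was at 0.19 with read totals alone and at 1.01 and 0.96 by limma with 0.1 and 1, and Slirp at 0.18, 0.23 and 0.22. In the Tg-GRK2-labelled libraries, mt-Nd4 was at 0.0065 with the size factors of DESeq2, 0.0088 with read totals alone, 0.0065 by DESeq2 and 0.047 by limma, and mt-Tn at 0.00098, 0.0031 and 0.037 with the first, second and last of these. By limma, mt-Co3 was at 0.011, mt-Nd5 at 0.018, mt-Cytb at 0.0059, mt-Ta at 0.033, Tfam at 0.029 and Lrpprc at 0.036 and 0.035, and Lrpprc was at 0.00061 with read totals alone. With a library left out, mt-Rnr1 ranged from -0.12 to 0.24, mt-Nd1 from -0.0079 to 0.020, mt-Atp8 from -0.23 to 0.012, mt-Nd4 from -0.024 to 0.013, mt-Tm from -0.24 to 0.15, mt-Ta from -0.055 to 0.041, mt-Tn from -0.056 to 0.018 and mt-Tg from -0.068 to 0.22.

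With the replicate number as a block, the mitochondrial genes called in the Tg-GRK2-labelled libraries were 3 higher and 10 lower, and those in Tg-RKIP 0 higher and 32 lower. Deviations from the group mean over all genes had correlations of -0.041 to 0.042 between libraries with the same number. Between libraries with different numbers they were -0.029 to 0.059. A batch that moves few genes could go unseen in this measure.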
